A study of Mus musculus with 19 samples.

Results

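Thymocytes with RNA of both *Sox13* and *Maf*, a pair of transcription factors of the gamma-delta (γδ) T cell lineage, were examined in the thymus of mice carrying a rearranged alpha-beta (αβ) T cell receptor (TCR) as a transgene. A cell was counted when at most 15% of its unique molecular identifiers (UMIs, each 1 RNA molecule read) were mitochondrial, when at least 200 genes were detected, and when it held at least 1 UMI of *Sox13* (ENSMUSG00000070643) and of *Maf* (ENSMUSG00000055435) and 0 UMIs of *Cd8b1* and *Foxp3*. In all, 1497 of 30378 passing cells in 8 transgenic lanes met the rule, and the whole series held 79569 passing cells of 85389 barcodes. These cells were proposed as γδ-like. Summed per mouse, their RNA of *Blk*, *Etv5* and *Cpa3*, the other markers listed for them, was higher than in the other cells. Of further genes listed for γδ cells, *Id2* was lower and *Zbtb16*, *Il17a* and *Il23r* were at 0 UMIs. In most of the cells counted, the TCRγδ antibody stayed at background. Their median TCRβ antibody level was 84.4 to 191 per 10000 antibody UMIs per mouse, with no background set for TCRβ. They are therefore called *Sox13*+*Maf*+ cells here.

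Thymocytes were measured by CITE-seq, which reads RNA and, through DNA-tagged antibodies, surface proteins of the same cell, with 1 mouse of 4 to 8 weeks per transgenic lane. The TCRs of AND and OT-II mice see peptide held by MHC class II, those of F5 and OT-I mice peptide held by MHC class I, and there were 2 mice of each genotype. By the study's methods AND and F5 mice were also Rag1-/-, which is not stated for OT-I and OT-II mice. The lane names carry 3 prefixes, taken here as 3 experiments, of which AND and F5 lanes have the first and second and OT lanes the third, so *Rag1* deficiency and experiment cannot be told apart. Unsorted wild-type lanes (2 mice, 2 lanes each) served as the reference without a transgene, and all these lanes held total thymocytes, with no sort.

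γδ T cells carry a receptor of a gamma and a delta chain, and leave the path of αβ thymocytes among precursors that have neither CD4 nor CD8. SOX13, c-MAF, ETV5 and the kinase BLK are known from γδ cells of the thymus that go on to make interleukin-17, and rearranged αβ TCR transgenes are known to be expressed before the stage at which an endogenous alpha chain would appear. AND, OT-I and OT-II name fixed receptors, of which OT-I and OT-II use a beta chain of the Vβ5 family.

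RNA depth ranged from 9893333 to 37265286 UMIs per transgenic lane. The *Sox13*+*Maf*+ cells were deeper than the other cells of their lane in AND (medians of 7898.5 against 4354.5 and 7824 against 4871 UMIs) and OT-II (6700.5 against 4191 and 3266 against 2000), as were the 7 cells of F5 replicate 2 (12799 against 4604), but not in OT-I (6276 against 7185 and 2913 against 3153). AND replicate 2 stood apart in its antibodies, with a total of 4484116 antibody UMIs against 13046477 to 19494628 in the other 7 lanes. Lanes shared 0 to 33 barcodes per pair over 28 pairs, and 14 *Sox13*+*Maf*+ cells had a barcode found in another transgenic lane.

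Over all passing cells, the share of *Sox13*+*Maf*+ cells differed between genotypes and, in AND, between mice. In OT-I they were 429 of 3754 cells (11.4%, exact 95% binomial interval 10.4 to 12.5) in replicate 1 and 421 of 3453 (12.2%, 11.1 to 13.3) in replicate 2. In AND they were 260 of 2674 (9.72%, 8.63 to 10.9) and 117 of 4320 (2.71%, 2.24 to 3.24). Thus the intervals of the AND mice did not overlap, and those of the OT-I mice did. In OT-II they were 178 of 5825 (3.06%, 2.63 to 3.53) and 85 of 3178 (2.67%, 2.14 to 3.30). In F5 they were 0 of 2646, for which a floor of 3 counts allows a share of up to 0.113% (exact upper limit 0.139%), and 7 of 4528 (0.155%, 0.0622 to 0.318). The unsorted wild-type lanes held 15 such cells, 13 in replicate 4 and 2 in replicate 5. The intervals cover counting error only, and shares were described without a test because the rule itself chose the cells.

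Because 1 UMI of each gene is found more readily in a deep cell, the shares were also taken with cells under 2000 RNA UMIs left out and the others thinned to 2000, which kept 2607 of 2674 and 4260 of 4320 cells in AND, 2623 of 2646 and 4378 of 4528 in F5, 3633 of 3754 and 2906 of 3453 in OT-I, and 5561 of 5825 and 1619 of 3178 in OT-II. The shares of the kept cells were 2.84% and 1.06% in AND, 0.0381% and 0.0457% in F5, 5.78% and 10.1% in OT-I, and 1.65% and 3.40% in OT-II. OT-I kept the highest shares and F5 the lowest after thinning, whereas AND replicate 1 came closer to the OT-II mice. The mice of OT-I and those of OT-II lay further apart than over all passing cells, with replicate 2 higher in both. Leaving out shallow cells did not fall evenly. In OT-II replicate 2 the median was 3266 UMIs in *Sox13*+*Maf*+ cells and 2000 in the other cells. Thinning also removed UMIs of *Cd8b1* and *Foxp3*, and their limit of 0 UMIs was applied afterwards. A cell that the rule had left out could thus be counted, as was 1 cell of F5 replicate 1, which had 0 before. With cells restricted to 1000 to 10000 antibody UMIs and at least 70 antibodies detected, AND replicate 2 had 1.47%.

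**Figure D1:**
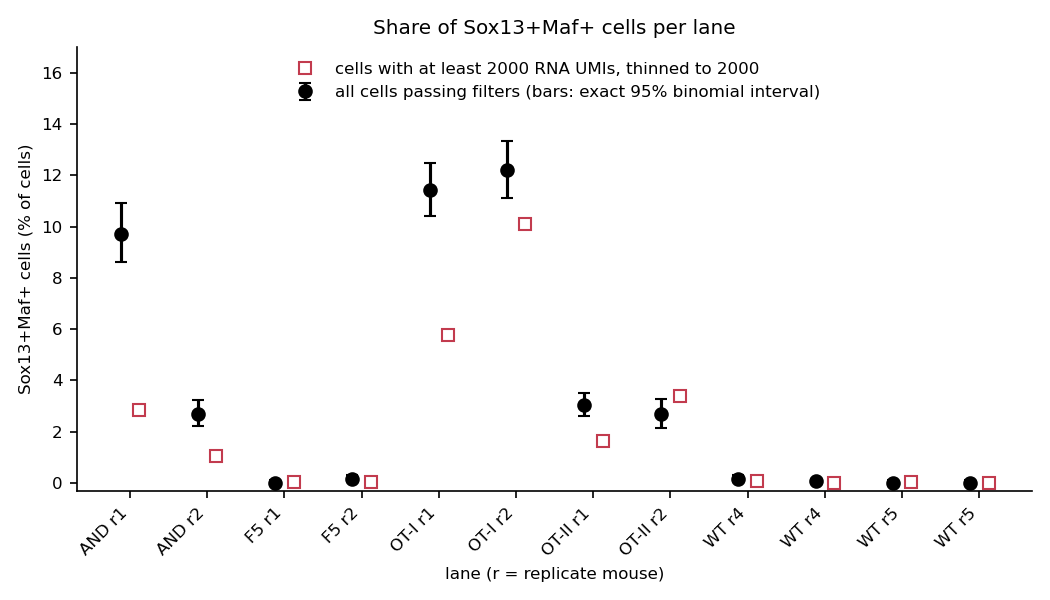
Percent of cells that were *Sox13*+*Maf*+ (vertical axis) in each transgenic and unsorted wild-type lane (horizontal axis; WT, wild-type); black points show all passing cells with exact 95% binomial intervals, red squares the cells with at least 2000 RNA UMIs, thinned to 2000. The OT-I lanes lie at 11.4% and 12.2%, AND replicate 1 at 9.72%, the other AND lane and both OT-II lanes near 3%, and F5 and wild-type lanes near 0.

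The *Sox13*+*Maf*+ cells held a median of 2 *Sox13* UMIs (at most 14) and 6 *Maf* UMIs (at most 33). Of the 1497, 75 held just 1 UMI of each gene. Just outside the rule were 501 cells with *Sox13* but no *Maf*, 892 with *Maf* but no *Sox13*, 315 with both and at least 1 *Cd8b1* UMI, and 1 with both and a *Foxp3* UMI. *Blk* stood at 432 CPM (UMI counts scaled to the same total for each group of cells) over all *Sox13*+*Maf*+ cells and at 217 in the 75 at the edge. It was 168 CPM in those with *Maf* but no *Sox13* and 222 CPM in those with *Cd8b1*, and 19.1 CPM in all cells that did not meet the rule. These cells outside the rule are among the other cells of their lanes, to which the *Sox13*+*Maf*+ cells are compared below.

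The markers listed for the label that the rule did not use were read next. The list was chosen with earlier results of these data known, so these values describe the cells and are no independent check of the label. At least 1 UMI of *Blk*, *Etv5* or *Cpa3* was found in 83.5% to 100% of *Sox13*+*Maf*+ cells per mouse and in 5.09% to 23.6% of the other cells of the same lanes. *Blk*, *Etv5* and *Cpa3* were all found in 85.8% and 84.6% of these cells in AND and 49.7% and 37.5% in OT-I. That share was 20.2% and 15.3% in OT-II, 0% in F5 replicate 2 and 0.0442% to 7.17% in the other cells. *Blk* (ENSMUSG00000014453), a Src-family kinase, reached 392 and 435 CPM in AND, 126 in F5 replicate 2, 494 and 468 in OT-I, and 374 and 327 in OT-II. The other cells had between 2.98 and 57.2 CPM, so the groups did not overlap. The log2 fold change was 4.05 (SE 0.27, adjusted p = 2.18e-08, edgeR quasi-likelihood test on UMIs summed per mouse, with the mouse as a block, Benjamini-Hochberg over all genes). *Etv5* (ENSMUSG00000013089), a transcription factor, rose by a log2 fold change of 3.83 (SE 0.26, adjusted p = 2.18e-08).

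*Cpa3* (ENSMUSG00000001865), a carboxypeptidase best known from mast cells and early progenitors, rose by 3.68 (SE 0.31, adjusted p = 2.54e-07) on the log2 scale. It was 1889 and 2520 CPM in AND, 183 in F5 replicate 2, 338 and 399 in OT-I, and 113 and 104 in OT-II. A *Cpa3* UMI was found in 96.9% and 99.1% of the AND cells, 56.9% and 48.9% of the OT-I cells and 25.8% and 20% of the OT-II cells. By edgeR the difference between OT-II and OT-I was not called (adjusted p = 0.439). Nor was a difference between Rag1-/- and OT mice in the contrast with the other cells (interaction term, adjusted p = 0.751). The level in the *Sox13*+*Maf*+ cells alone was not tested between Rag1-/- and OT mice. The mast cell genes *Fcer1a*, *Ms4a2*, *Mcpt4* and *Tpsb2* were at 0 UMIs in *Sox13*+*Maf*+ cells of every mouse.

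The same fit over 11734 genes called 1515 higher (12.9% of the genes tested) and 2091 lower (17.8%), so a single call is not unusual here. With library sizes in place of TMM factors it called 1830 higher and 1616 lower, which moved the higher genes from 42.0% to 53.1% of the calls. The median over all genes was -0.05 on the log2 scale. All 3 tested γδ markers of the list were called higher, with a median log2 fold change of 3.83. As that list was chosen with earlier results of these data known, the count is no independent support for the label.

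Genes of the γδ receptor rose at the RNA level. Of 9 tested genes of the list, 7 were higher and 1 was lower, with a median log2 fold change of 2.43. The lower gene, *Trdv1*, was 0 to 2.92 CPM against 0.19 to 4.27, and its call was lost by DESeq2 (adjusted p = 0.142), against other cells without *Cd8b1* and *Foxp3* (0.178) and without OT-I replicate 1 (0.0942). *Tcrg-C4*, a constant region of the gamma chain, was 426 and 463 CPM in AND, 309 in F5 replicate 2, 460 and 412 in OT-I, and 357 and 468 in OT-II, against 20.1 to 86.3 CPM in the other cells. The groups did not overlap, with a log2 fold change of 3.12 (SE 0.20, adjusted p = 1.07e-08). *Tcrg-C1* (2.43, SE 0.20) and *Tcrg-C2* (2.35, SE 0.21) rose as well. *Trdc*, the constant region of the delta chain, lies within the alpha chain locus and was also found in many other cells. It was 597 and 784 CPM in AND, 1098 and 611 in OT-I and 1047 and 685 in OT-II, above the 124 to 475 of the other cells in those mice, but 286 against 383 in F5 replicate 2 (1.34, SE 0.25, adjusted p = 0.000759).

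Gamma chain variable segments, which mark a particular rearrangement, had their highest values in OT-II among the transgenic mice, but the difference from OT-I was not called (edgeR adjusted p = 0.111 for *Trgv2* and 0.0667 for *Tcrg-V4*). *Trgv2* was 278 and 663 CPM in the OT-II *Sox13*+*Maf*+ cells, 9.31 and 36.3 in OT-I, 1.05 and 3.49 in AND and 0 in F5 replicate 2. *Tcrg-V4* was 32.9 and 34.5 CPM in OT-II, 1.86 and 1.91 in OT-I, and 0 in AND and F5 replicate 2. In wild-type replicate 4 the 13 cells of the rule had 204 CPM of *Trgv2* and 43.0 of *Tcrg-V4*. AND mice lack *Rag1*, without which no endogenous receptor gene is rearranged. RNA of a constant region alone does not show a rearranged gene.

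At the surface, the summed TCRγδ level of these cells was above that of the other cells in OT-II, through few cells. Antibody levels are given per 10000 antibody UMIs, summed over the cells of a mouse. TCRγδ was 39.9 and 43.8 in the OT-II *Sox13*+*Maf*+ cells against 6.36 and 6.76 in the other cells, but the median cell had 6.08 and 3.93 against 4.02 and 4.35. The summed level was 3.44 and 6.36 against 2.83 and 5.06 in OT-I, 16.0 and 32.7 against 15.6 and 29.5 in AND, and 19.4 against 27.1 in F5 replicate 2. Over the 7 mice the log2 fold change was 0.57 (SE 0.43, adjusted p = 0.353), higher in 6 of 7. Of 7 receptor antibodies 0 were called by edgeR in this comparison, beside 17 of all 110 antibodies (15.5%).

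Cell by cell, the TCRγδ level was compared with a background, the 99th percentile of cells with *Cd8b1* UMIs in the same lane. In OT-II, 14 of 178 *Sox13*+*Maf*+ cells lay above it (7.87%, 4.37 to 12.8) and 9 of 85 (10.6%, 4.96 to 19.2). In OT-I, 5 of 429 (1.17%) and 3 of 421 (0.713%) did, in AND 6 of 260 (2.31%) and 4 of 117 (3.42%), and in F5 replicate 2, 0 of 7. The other cells without *Cd8b1* gave 1.03% to 5.85% in the transgenic lanes. With the 95th percentile as background the shares were 12.4% and 12.9% in OT-II, 11.4% and 9.5% in OT-I, 11.2% and 12% in AND, and 2 of 7 (28.6%) in F5 replicate 2. The other cells without *Cd8b1* then gave 6.03% and 5.54% in OT-II, 8.92% and 9.47% in OT-I, 7.94% and 8.16% in AND, and 11.3% in F5 replicate 2. In the wild-type mice, 8 of 13 *Sox13*+*Maf*+ cells (61.5%, 31.6 to 86.1) and 2 of 2 lay above the 99th percentile. That background was 184 per 10000 in OT-II replicate 2, against 16.8 to 77.4 in the other transgenic lanes.

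**Figure D2:**
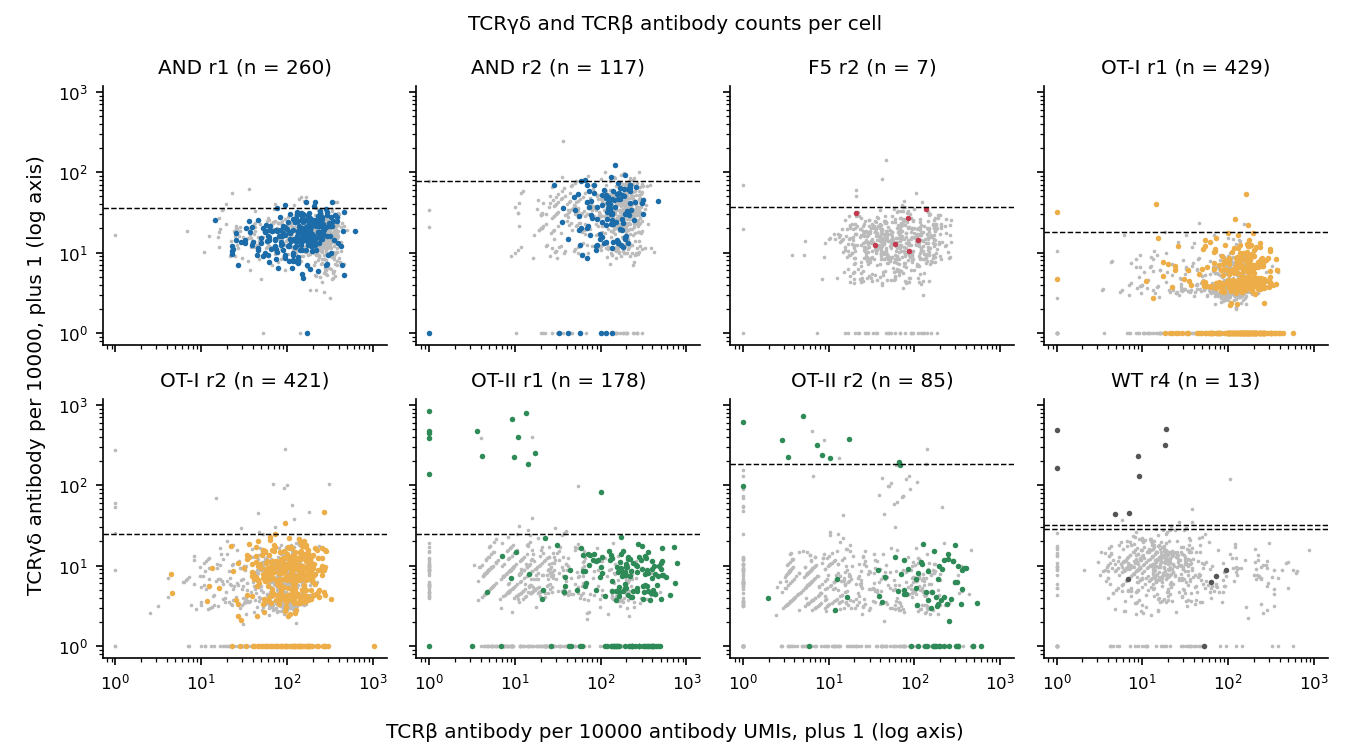
TCRγδ (vertical axis) against TCRβ (horizontal axis) antibody level per 10000 antibody UMIs, plus 1, on log axes, for each *Sox13*+*Maf*+ cell (colored) and a sample of up to 600 other cells (grey) per mouse; WT is wild-type and the dashed line is the background of each lane (2 lanes for wild-type). In OT-II a separate group, 14 and 9 cells above the line, sits high in TCRγδ and low in TCRβ, and in AND and OT-I nearly all *Sox13*+*Maf*+ cells lie below the line with TCRβ.

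Set apart by that background, the OT-II *Sox13*+*Maf*+ cells also differed in TCRβ. The 14 cells above background in replicate 1 had a summed TCRγδ level of 383, TCR Vγ2 of 414 and a median TCRβ of 5.7 per 10000. The 9 cells in replicate 2 had 363, 348 and 6.31. In the remaining 164 and 76 cells TCRγδ was 5.48 and 8.04, and the median TCRβ was 203 and 171. Cells on both sides carried *Blk*, at 397 and 549 CPM above background and 372 and 301 CPM at or below it. The split was made on TCRγδ, so only the other measures describe it, and no test was made.

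TCRβ, the chain of the αβ receptor, was read on the *Sox13*+*Maf*+ cells of all 4 genotypes, though no background was set for it. It was 214 and 163 per 10000 in OT-II against 51.8 and 42.8 in the other cells, and 155 and 116 against 90.3 and 77.9 in OT-I. In AND it was 143 and 136 against 214 and 142, and in F5 replicate 2, 65.5 against 69.1. It was higher than in the other cells in both OT-I and both OT-II mice and lower in the AND mice and F5 replicate 2 (log2 fold change over the 7 mice 0.44, SE 0.34, adjusted p = 0.353). The difference between the Rag1-/- and the OT mice in this contrast with the other cells was not called (-1.24, adjusted p = 0.277, edgeR interaction term). In wild-type replicate 4 the cells of the rule had 32.9, and in replicate 5, 9.31.

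The TCRβ on most OT-II *Sox13*+*Maf*+ cells was not bound by the Vβ5 antibody, which recognizes the beta chain family of the OT transgenes. Vβ5 was 302 and 220 per 10000 in the OT-I *Sox13*+*Maf*+ cells against 152 and 121 in the other cells, but 44.2 and 29.9 against 117 and 109 in OT-II. AND and F5, whose transgenes use other families, had 2.42 to 17.2. Over the 7 mice the difference was not called (log2 fold change -0.45, SE 0.36, adjusted p = 0.353).

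Among cells with TCRβ of at least 100 per 10000, Vβ5 was below 50 in 110 of 126 OT-II *Sox13*+*Maf*+ cells in replicate 1 (87.3%, 80.2 to 92.6) and in 52 of 56 in replicate 2 (92.9%, 82.7 to 98). It was below 50 in 138 of 902 (15.3%, 13 to 17.8) and 113 of 465 (24.3%, 20.5 to 28.5) of the other OT-II cells with that TCRβ level. In OT-I it was below 50 in 0 of 331 and 1 of 240 *Sox13*+*Maf*+ cells. These limits were chosen after the values were seen. At or above the median TCRβ of the *Sox13*+*Maf*+ cells, the median Vβ5 was 5.92 and 6.26 in those cells of OT-II and 586 and 160 in the other OT-II cells, whereas in OT-I it was 392 and 290 against 284 and 201.

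**Figure D3:**
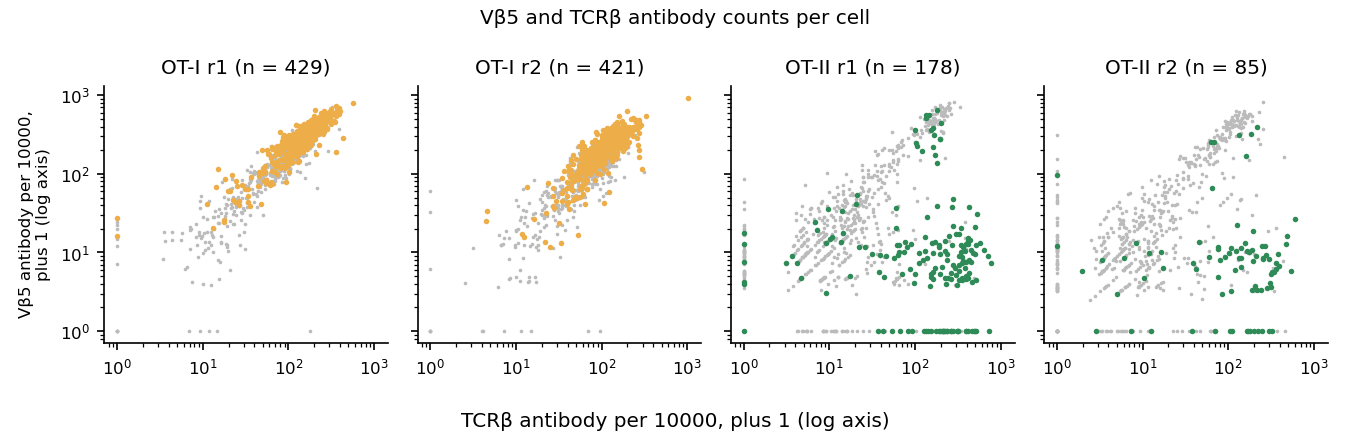
Vβ5 (vertical axis) against TCRβ (horizontal axis) antibody level per 10000 antibody UMIs, plus 1, on log axes, in OT-I and OT-II mice, with *Sox13*+*Maf*+ cells colored and a sample of up to 600 other cells per mouse in grey. OT-I cells of both kinds follow 1 line, whereas most OT-II *Sox13*+*Maf*+ cells lie at high TCRβ and low Vβ5, away from the line of the other cells.

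RNA of beta chain variable segments was sparse, and was looked at after the antibody result. *Trbv12-1* and *Trbv12-2*, near-identical genes of the Vβ5 family between which reads may be split, held 192 of 196 and 322 of 325 *Trbv* UMIs in the OT-I *Sox13*+*Maf*+ cells. In OT-II they held 24 of 55 and 8 of 25, and the rest came from 14 and 12 other *Trbv* genes. Other *Trbv* genes made up 56.4% and 68.0% of *Trbv* UMIs in the OT-II *Sox13*+*Maf*+ cells and 25.4% and 43.8% in the other OT-II cells. In AND 21 of 29 and 40 of 42 UMIs were *Trbv26*.

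Of 4 genes of the αβ receptor, 3 were called lower, with a median log2 fold change of -0.66. *Trac*, the alpha chain constant region, was 3178 and 3102 CPM in AND and 2873 and 1884 in OT-II, but 195 in F5 replicate 2 and 170 and 151 in OT-I. It was lower than in the other cells in 6 of 7 mice (log2 fold change -1.04, SE 0.20, adjusted p = 0.000759). *Ptcra*, which pairs with a new beta chain before an alpha chain is made, fell to 0 to 30.7 CPM from 10.8 to 196 (-3.14, SE 0.24, adjusted p = 8.26e-08). *Trbc1* was not called (-0.11, SE 0.10), and *Trbc2* (-0.27, SE 0.067) turned to 0.017 when the other cells were also limited to those without *Cd8b1* and *Foxp3*. Whether transcripts of each transgene are counted under *Trac* was not tested. Of the CD3 complex, which carries the signal of either receptor, *Cd247* rose (0.64, SE 0.16) and *Cd3e* and *Cd3g* fell by 0.33 and 0.28. The fall of *Cd3e* was not called against other cells without *Cd8b1* and *Foxp3* (adjusted p = 0.0569), nor that of *Cd3g* by DESeq2 (adjusted p = 0.057).

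Both coreceptors were lower in the *Sox13*+*Maf*+ cells, though single cells still carried them. The CD4 antibody was 131 and 74.6 per 10000 in AND, 33.1 in F5 replicate 2, 29.4 and 38.8 in OT-I, and 44.5 and 28.7 in OT-II. The other cells had 218 to 1139, so the groups did not overlap (log2 fold change -3.52, SE 0.17, adjusted p = 5.39e-07, by the same test over 110 antibodies). CD8a fell by 3.599 (SE 0.25, adjusted p = 5.57e-06), from 155 to 649 in the other cells to 19.1 to 50.9. As the rule left out cells with *Cd8b1*, the partner of CD8a, this fall is tied to the rule, and it was 1.91 against other cells that also lacked *Cd8b1* and *Foxp3*. CD4 fell by 3.52 in that comparison. CD8b, which the rule used, was 11.3 to 52.5 against 228 to 1068, given without a test.

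Of the 110 antibodies, 5 were called higher (4.55%) and 12 lower (10.9%), and 14 and 10 with library sizes in place of TMM factors, which moved the median over all antibodies from -0.14 to 0.10. PD-1, an inhibitory receptor induced by TCR signals, was 90.9 to 126 against 17.3 to 62.4 (1.68, SE 0.21, adjusted p = 0.000449). CD48 (0.75, SE 0.17, adjusted p = 0.0164) was higher in 7 of 7 mice. Sca-1 (0.76) and CD122 (0.38), both with an adjusted p of 0.0383, were higher in 7 of 7 as well, but each lost its call when OT-II replicate 1 or OT-I replicate 2 was left out (adjusted p = 0.0524 to 0.105). Sca-1 was 0.24 (adjusted p = 0.383) against other cells without *Cd8b1* and *Foxp3*. RNA of *Il2rb*, the gene of CD122, was called lower, against the direction of its protein.

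CD5, whose surface level follows the strength of TCR signals, was lower. It was 662 and 506 per 10000 in AND, 677 in F5 replicate 2, 584 and 631 in OT-I, and 461 and 453 in OT-II, against 854 to 1699 in the other cells, without overlap (-1.36, SE 0.18, adjusted p = 0.000536). CD304 (-1.52), CD55 (-1.29) and CD28 (-1.098) fell in 7 of 7 mice. CD69, an early activation marker, fell by 1.02 (adjusted p = 0.0323), but the call was lost without either AND mouse or either OT-I mouse (adjusted p = 0.0564 to 0.0809). Of the 12 antibodies listed for thymocyte stages, 2 were higher and 3 lower.

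**Figure D4:**
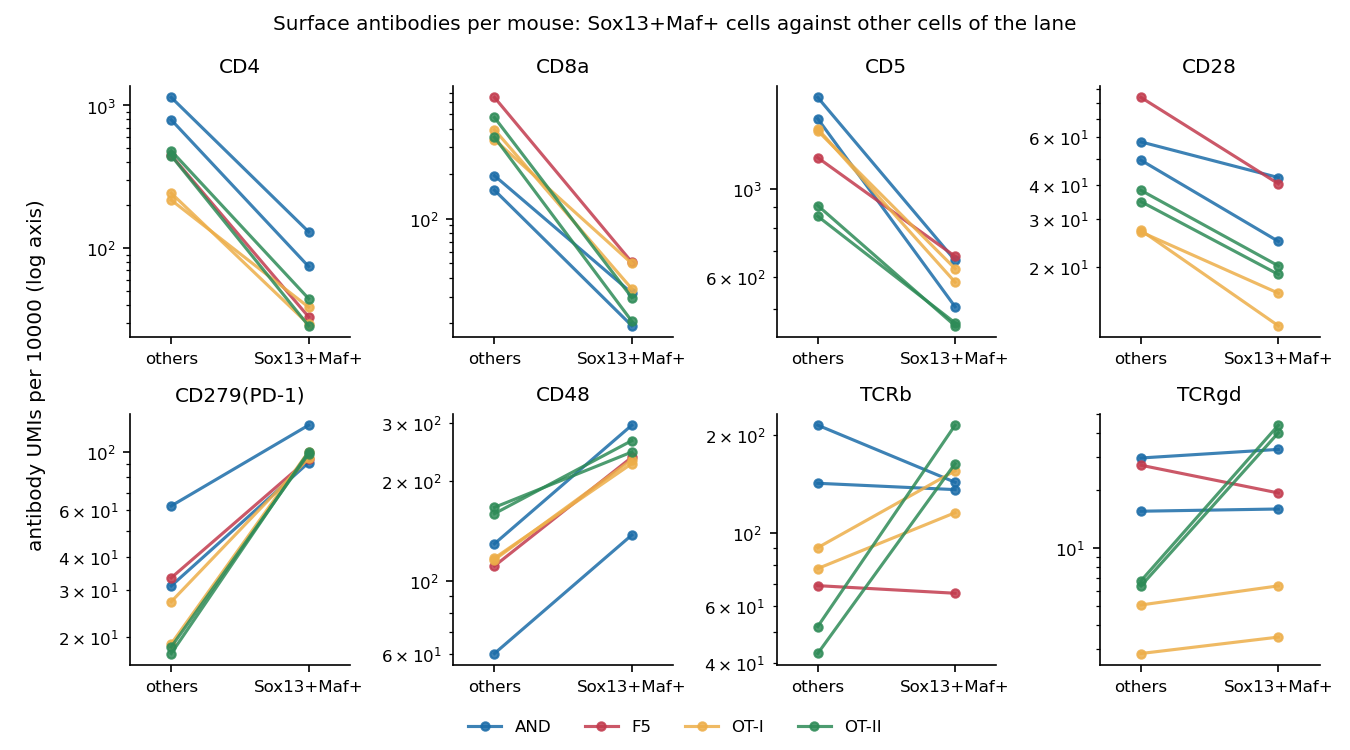
Antibody UMIs per 10000 (vertical axis, log scale) in the other cells and in the *Sox13*+*Maf*+ cells, summed per mouse, for 8 antibodies; each line is 1 mouse, colored by genotype. CD4, CD8a, CD5 and CD28 fell and PD-1 and CD48 rose in each of the 7 mice. TCRβ and TCRγδ were not called. TCRβ lay above the other cells in OT-II and below them in AND, and TCRγδ was 39.9 and 43.8 in OT-II against 6.36 and 6.76 in its other cells.

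Most genes of the TCR signal list were lower. Of 11 tested genes, 9 were lower, 1 was higher and 1 was not called, with a median log2 fold change of -1.61. *Itm2a*, which rises in positive selection, fell from 152 to 777 CPM in the other cells to 53.4 to 135 (-2.11, SE 0.13, adjusted p = 1.07e-08). *Nab2*, a partner of the EGR factors, fell from 16.2 to 88.2 CPM to 0 to 14.6 (-2.33, SE 0.21, adjusted p = 5.10e-07). *Cd5* RNA fell by 1.61 (SE 0.13, adjusted p = 1.43e-07), in the direction of its protein. *Egr1* (-1.40), *Egr2* (-2.80), *Nr4a1* (-1.61) and *Nr4a3* (-2.45) fell in the fit but not in every mouse, and *Nr4a3* was not called by DESeq2 (adjusted p = 0.119) or without OT-I replicate 1 (0.0967). OT-II replicate 2 had more *Egr1* (59.7 against 45.3 CPM) and F5 replicate 2 more *Nr4a1* (22.9 against 11.2). *Dusp5*, a phosphatase that acts on ERK, rose in 7 of 7 mice (0.78, SE 0.13, adjusted p = 0.000194).

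*Rag1* and *Rag2*, the recombinase, were low. *Rag1* (ENSMUSG00000061311) was 34.4 and 62.8 CPM in the OT-II *Sox13*+*Maf*+ cells against 420 and 799 in the other cells, and 1.24 and 4.46 against 29.8 and 58.2 in OT-I. In the Rag1-/- mice it was 0 in the *Sox13*+*Maf*+ cells and 6.95 to 53.7 in the other cells, so RNA assigned to the gene was still read there. The log2 fold change was -3.90 (SE 0.19, adjusted p = 5.65e-10) for *Rag1* and -3.67 (SE 0.33) for *Rag2*. As the rule left out cells with *Cd8b1*, these falls are tied to the rule, as is that of *Cd8a* RNA. Cells with *Sox13*, *Maf* and at least 1 *Cd8b1* UMI had 46 CPM of *Rag1* and 223 of *Cd8a*. The *Sox13*+*Maf*+ cells of all lanes together had 7.38 and 19.5. *Dntt*, which adds bases during rearrangement, was not called (0.03, SE 0.26).

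Among factors of the γδ lineage, 5 of 8 tested were higher and 1 was lower. *Gata3*, a factor of early T cells and of the CD4 lineage, was 229 to 884 CPM against 110 to 215, without overlap (1.91, SE 0.13, adjusted p = 2.02e-08). *Sox4*, which acts with *Sox13* in the interleukin-17 lineage, was 481 to 1087 against 293 to 449 (1.28, SE 0.12). *Runx1* rose by 0.60 (SE 0.10), and *Hes1*, a Notch target, by 1.27 (SE 0.33), which was lost against other cells without *Cd8b1* and *Foxp3*. *Id2*, an inhibitor of E proteins that mature γδ and innate cells use, fell in 7 of 7 mice, from 13.7 to 114 CPM to 0 to 12.8 (-2.40, SE 0.17, adjusted p = 3.96e-08). *Id3*, induced by γδ receptor signals (-0.14, SE 0.14), and *Tcf7* (-0.23, SE 0.093) were not called. *Zbtb16*, the factor of innate-like γδ and NKT cells, was at 0 UMIs.

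Of the interleukin-17 list, 5 of 7 tested genes were higher and 1 was lower, but the cytokine and its inducing receptor were at 0 UMIs (*Il17a* and *Il23r*). *Il1r1*, a receptor for interleukin-1, was 17.4 to 32.9 CPM in 6 mice against 0.605 to 3.1 in their other cells, and 0 in F5 replicate 2 (4.11, SE 0.30, adjusted p = 4.78e-08). *Cd163l1*, which encodes a scavenger receptor of γδ cells, was 80.1 to 421 CPM against 3.21 to 63.6 (3.63, SE 0.32), and *5830411N06Rik*, a related gene, rose by 3.61 (SE 0.33). *Tmem176b* (0.79, SE 0.22) lost its call against other cells without *Cd8b1* and *Foxp3*. *Il7r*, the receptor of interleukin-7, fell (-1.098, SE 0.22, adjusted p = 0.00143), in 5 of 7 mice.

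Of 5 tested genes of the interferon-gamma list, 1 was higher and 3 were lower. *Tbx21*, *Eomes*, *Ifng*, *Xcl1* and *Gzmb* were at 0 UMIs in the *Sox13*+*Maf*+ cells of every mouse. *Il2rb* fell by 1.49 (SE 0.31) and *Klrd1* by 4.37 (SE 0.44). The fall of *Il2rb*, the gene of CD122, went against the CD122 antibody, which was called higher (0.38). *Nkg7*, a cytotoxic granule gene, rose (1.28, SE 0.39, adjusted p = 0.0183), to 283 and 288 CPM in AND, but stood at 244 against 269 in OT-I replicate 1. *Xcl1* was the third lower call, at 0.0403 to 11.6 CPM in the other cells, and was not called by DESeq2 (adjusted p = 0.18).

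**Figure D5:**
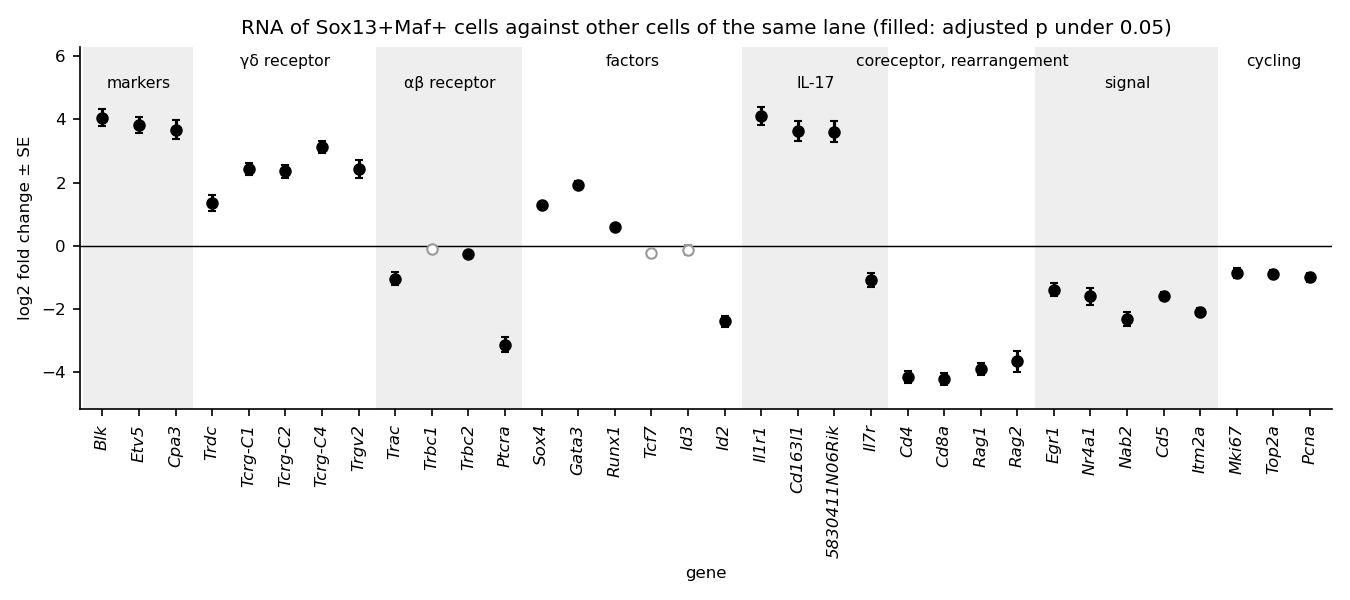
Log2 fold change with its standard error (vertical axis) of named genes (horizontal axis) in *Sox13*+*Maf*+ cells against other cells of the same lanes, over 7 mice, grouped by list; filled points passed an adjusted p of 0.05. Markers, γδ receptor and interleukin-17 genes lie mostly above 0, and coreceptor, recombinase, TCR signal and cycling genes below it. The falls of *Cd8a*, *Rag1* and *Rag2* are tied to the rule, which left out cells with *Cd8b1*.

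Genes of the CD4 and CD8 lineages split. *Runx3*, which encodes the factor of CD8 cells, was 308 and 258 CPM in AND, 160 in F5 replicate 2, 251 and 296 in OT-I, and 235 and 248 in OT-II (1.302, SE 0.25, adjusted p = 0.000912), above the other cells in 6 of 7 mice and not in OT-I replicate 2 (296 against 305). *Itgae*, the integrin CD103, rose by 2.02 (SE 0.35). *Zbtb7b*, which encodes the CD4 lineage factor ThPOK, was 0 to 4.20 CPM (-3.77, SE 0.30), and *Cd40lg*, the ligand that helper cells use, 0 to 2.55 (-4.27, SE 0.33). All 5 genes of this list were called, 3 higher and 2 lower.

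Of 6 maturation genes, 2 were higher and 2 lower. The thymus homing receptor gene *Ccr9* rose in 6 of 7 (1.16, SE 0.16), with F5 replicate 2 at 561 against 582 CPM. *S1pr1*, needed to leave the thymus, fell by 1.502 (SE 0.14) and *Ccr7*, needed to enter the medulla, by 0.95 (SE 0.20). Cycling genes were lower in 8 of 8 (*Mki67* -0.88, *Pcna* -1.01), but against other cells without *Cd8b1* and *Foxp3*, 6 of the 8 were no longer called. Of the genes for the CD4-CD8- stage, *Kit*, *Hes1* and *Tcf12* were higher and *Ptcra*, *Dtx1* and *Cd44* lower of 9 tested. *Kit* was not called against other cells without *Cd8b1* and *Foxp3* (0.59, adjusted p = 0.109), and *Cd44* neither by DESeq2 (adjusted p = 0.0555) nor without either OT-I mouse (0.133 and 0.104). For CD4+CD8+ thymocytes, 1 of 5 genes was higher and 1, *Themis* (-0.73), lower, the latter not called against other cells without *Cd8b1* and *Foxp3* (-0.23, adjusted p = 0.115).

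Outside the lists, the called genes with the highest fold changes that rose in every mouse were *Gm37552* (3.92), *Gem* (3.84), a small GTPase, *Podnl1* (3.71), *Wfs1* (3.605), of the endoplasmic reticulum, and *Tuba8* (3.47), a tubulin. *Gem* was 219 and 287 CPM in AND, 11.4 in F5 replicate 2, 135 and 60.6 in OT-I and 95.8 and 87.9 in OT-II, against 0.535 to 30.7 in the other cells. Of genes that fell in every mouse, *Dapl1* (-4.29) and *Slfn1* (-4.12) were outside the lists, and the hemoglobin genes *Hba-a2* (-7.34), *Hba-a1* (-7.16) and *Hbb-bs* (-6.34) were of the erythrocyte-like list. *Hbb-bs* in the other cells ranged from 0.0403 to 4993 CPM, and the part of red cells in that result was not tested.

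Markers of other cell types were summed over each list per mouse. Erythrocyte-like genes gave 0 to 53.4 CPM in the *Sox13*+*Maf*+ cells and 0.484 to 8130 in the others, B-like genes 18.8 to 49.3 against 6.17 to 63.6, and myeloid-like genes 78.4 to 335 against 201 to 403. The mast-like sum of 11.3 to 54.8 against 1.18 to 15.5 came from *Kit*, with the other 4 genes at 0. NKT-like genes gave 21.0 to 56.4 against 24.9 to 50.4, with *Zbtb16* and *Klrb1c* at 0, and epithelial-like genes 16.6 to 29.2 against 3.65 to 20.4, with *Krt5* at 0. The epithelial-like sum was higher than in the other cells in 7 of 7 mice, and 1 of its 2 tested genes was called higher. Treg-like genes gave 286 to 601 against 183 to 396, led by *Ikzf2*. Doublets called by Scrublet were 0 to 15 of the *Sox13*+*Maf*+ cells per lane.

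Whether these cells differ between TCRs of either MHC class was asked across AND, OT-I and OT-II, since the F5 mice held too few. With experiment family in the model the class difference rests on OT-II against OT-I, 2 mice each. MHC class thus cannot be told apart from the single transgenic line of each class. In AND, also of class II, 2.31% and 3.42% of the cells lay above the TCRγδ background, against 7.87% and 10.6% in OT-II. TCR Vγ2 (log2 fold change 3.52, adjusted p = 0.000439), TCRγδ (3.09, adjusted p = 0.000995) and TCR Vγ1.1 (2.49, adjusted p = 0.0109) were higher and Vβ5 lower (-2.98, adjusted p = 0.0456) in OT-II than in OT-I by edgeR. These were 4 of 111 antibodies (3.6%), with 2.7% called higher and 0.901% lower. Without either OT-I mouse 0 antibodies were called higher, and without any 1 of the OT mice 0 were called lower. With the cells above the TCRγδ background left out, an alternative chosen after seeing the data, 0 were called higher too. Of the cells left out, 23 were from OT-II. The cut was made on TCRγδ, so the loss of its own call was set by the cut and shows nothing further.

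In RNA 4 of 9060 genes were called (0.0442%, with 0.0221% in each direction) in that comparison, *Rnf43* (6.20) and *Trac* (3.94) higher and *Pparg* (-5.71) and *Ctla2a* (-3.84) lower in OT-II than in OT-I. With the replicate number as a block, 97 genes were called higher and 99 lower. *Rnf43*, a ubiquitin ligase of Wnt signaling, was 175 and 132 CPM in the OT-II *Sox13*+*Maf*+ cells and 1.86 and 2.55 in OT-I, but it was 217 and 149 in the other OT-II cells, so it was as high outside the *Sox13*+*Maf*+ cells. *Pparg*, which encodes a nuclear receptor of lipid metabolism, was 38.8 and 30.6 CPM in OT-I and 34.0 and 34.9 in AND, against 0.731 and 0 in OT-II. In the other cells it was 0.726 to 9.54 CPM in those 3 genotypes. Both lower calls were lost without either AND mouse or either OT-II mouse, and the higher call of *Trac* without either AND mouse (adjusted p = 0.0828 and 0.0864).

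Against the few wild-type cells of the same rule, 21 of 7888 genes were called (0.266%) over the 4 OT mice, 2 higher (0.0254%) and 19 lower (0.241%). *Lig4* (4.25) and *Myo6* (4.13) were higher, but *Lig4* was not called by DESeq2 (adjusted p = 0.136) or without wild-type replicate 4 (0.777) or 5 (0.0769), nor *Myo6* with all transgenic mice (0.223) or without replicate 4 (0.777). *Id2* (-4.51) was 290 CPM in wild-type replicate 4 and 6.28 to 12.8 in the OT mice, *Icos* (-3.29) 435 against 30.0 to 47.1, *Il7r* 387 against 19.1 to 59.7 and *Cxcr6* (-4.32) 199 against 5.74 to 16.8. These levels came from 13 cells of 1 mouse, as the 2 cells of replicate 5 held 0 UMIs of *Id2*, *Icos* and *Il7r*, and without replicate 4 no gene was called lower. By edgeR 0 of 111 antibodies were called (18 at an unadjusted p under 0.05), and by DESeq2 12. The wild-type cells of replicate 4 also had *Zbtb16* (75.2 CPM), which was at 0 in the transgenic ones.

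Whether the contrast with the other cells of a lane differed between the Rag1-/- and the OT mice was asked with an interaction term, which called 48 of 11734 genes (0.409%), 32 in the direction of the Rag1-/- mice (0.273%) and 16 in the other (0.136%). Of the cycling list *Mcm5* (1.16) and *Tyms* (1.01) were among them, with less of a fall in the Rag1-/- mice, and the other 6 of the 8 were not called. The make-up of the other cells differed between genotypes, so such a difference can come from either group of cells, which was not tested. An *Mki67* UMI was found in 9.69% and 5.28% of the other cells in AND. That share was 27.6% in F5 replicate 2 and 14.8% to 20.1% in the OT mice. Both calls were lost with doublets left out (adjusted p = 0.0635 and 0.064) and without AND replicate 1, F5 replicate 2, OT-I replicate 1 or OT-II replicate 2 (0.0502 to 0.348). Each of the 23 genes named for this comparison lost its call under at least 1 alternative.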

How the data were processed

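The authors deposited UMI counts of RNA and antibodies per cell barcode and lane, without normalization, made with Cell Ranger 3.1.0 on the mm10 reference according to their methods. Here the 19 lanes were read as deposited, with 28692 genes and 111 antibodies. Cells, lists and comparisons were chosen with earlier results of these data known. Counts were summed per mouse for *Sox13*+*Maf*+ and other cells, and tested with edgeR 4.0.16 (TMM factors, filterByExpr for RNA, quasi-likelihood test, mouse as block for cells within a lane), with Benjamini-Hochberg adjustment at 0.05 and DESeq2 1.42.0 as an alternative. F5 replicate 1 had no such cell, and the fits used the other 7 mice. The class comparison took mice with at least 10 such cells. Doublets were called with Scrublet in scanpy 1.11.5 at 0.8% per 1000 barcodes and left in. Named genes were those of the lists and, for each RNA fit, the 10 called genes at either end with a mean of at least 20 CPM in the higher group (for cells within a lane, also with the same direction in every mouse), and 5 antibodies at either end. The fits were tested on simulated data. Each genotype had 2 mice, but F5 entered the fits within lanes with 1 mouse of 7 cells. Where the mouse was a block, the p-values measure how the difference from the other cells varied over the 7 mice. In the class and wild-type comparisons they measure the spread between few mice. Some called genes and antibodies are counted but not reported here by name.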

Additional observations from a re-analysis of the deposited data

Results flagged for a closer look

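The difference between *Sox13*+*Maf*+ and other cells was compared between the Rag1-/- mice (AND and F5 replicate 2) and the OT mice by an interaction term (edgeR). It called 48 of 11734 genes (0.409%), 32 with a higher and 16 with a lower difference in the Rag1-/- mice. Higher on the log2 scale were AA467197 (3.17), *Cd79b* (1.84) and *Plac8* (1.64), then *Dtl* (1.59), *Chaf1a* (1.525), *Cenph* (1.51), *Rad51ap1* (1.38), *Hist1h1b* (1.355) and *Cenpm* (1.27). In the listed genes *Mcm5* (1.16), *Tyms* (1.01) and *Lyz2* (2.04) were called as well. AA467197 was 117 and 136 CPM in the AND *Sox13*+*Maf*+ cells, 0 in F5 replicate 2 and 1.24 to 6.28 in the OT mice. Its log2 difference from the other cells (of CPM plus 1) was 1.84 and 3.05 in AND, but -1.57 in F5 replicate 2 and 2.06 in OT-II replicate 2. *Dtl* was 30.8 and 14.8 CPM in AND against 31.1 and 10.1 in the other cells, and 13.2 to 16.1 against 38.0 to 47.9 in the OT mice.

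Lower by the interaction term were *Gpr183* (-3.44), *Tnfrsf25* (-2.54), *Izumo1r* (-2.51), *Lxn* (-2.36), *Nav2* (-2.15), *Gm12840* (-2.11), *Ckb* (-2.11), *Gm26740* (-1.73), *Gm43647* (-1.40) and *Faah* (-1.09). *Gpr183*, which encodes a receptor that guides cells to oxysterols, was 3.15 and 6.97 CPM in the AND *Sox13*+*Maf*+ cells against 45.7 and 73.0 in the others, and 15.5 to 66.0 against 16.4 to 49.9 in the OT mice. In F5 replicate 2 *Izumo1r* and *Ckb* were not lower: the log2 difference (of CPM plus 1) was 1.6 for both, above each OT mouse, against -2.29 and -3.4 for *Izumo1r* and -2.77 and -1.82 for *Ckb* in AND. *Rag1* deficiency and experiment cannot be told apart here. A difference in this term can also come from the other cells, whose make-up differed between genotypes. By edgeR 0 of 110 antibodies were called for this difference (20 at an unadjusted p under 0.05), and by DESeq2 1.

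TCRβ and Vβ5 had ratios on opposite sides of 1 in some genotypes. Between the Rag1-/- and the OT mice the interaction term called neither (adjusted p = 0.277 and 0.67, edgeR), and the difference in ratio between single genotypes was not tested. The ratio of TCRβ in *Sox13*+*Maf*+ cells to that in the other cells was 0.669 and 0.956 in AND, 1.72 and 1.48 in OT-I, and 4.13 and 3.81 in OT-II. For Vβ5 the ratio was 1.12 and 1.33 in AND and 1.99 and 1.82 in OT-I, but 0.377 and 0.276 in OT-II.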

How the results depend on the processing

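Over 143 named features there were 2215 values under alternatives, of which 1985 kept direction and call, 219 lost the call and 11 turned. Only 54 of the 143 kept direction and call under every alternative. These were 4 of 12 antibodies and 49 of 88 genes for *Sox13*+*Maf*+ against other cells, and 1 of 4 genes for class. None were among the 4 antibodies for class, the 12 genes against wild-type cells or the 23 genes of the interaction term. Counts are given as higher and lower. For antibodies of *Sox13*+*Maf*+ against other cells (5 and 12), DESeq2 gave 17 higher, library sizes 14 and the antibody filters 11, and leaving out 1 mouse 3 to 12 and 8 to 13. Without the replicate block, 2 and 3 antibodies and 567 and 447 genes were called, with 10467 genes tested in place of 11734. Leaving out 1 mouse gave 1110 to 1606 and 1415 to 2072 genes.

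For class (antibodies 3 and 1, genes 2 and 2), library sizes gave 2 antibodies lower, DESeq2 7 and 5 genes, no filter 20 and 14, and the antibody filters 4 and 1. Without the TCRγδ-high cells, a cut made on TCRγδ itself, 0 antibodies were higher and TCR Vγ1.1 turned to -0.0116. With a replicate block, 7 and 2 antibodies and 97 and 99 genes were called; the labels do not say that the number marks a litter or batch, but same-numbered OT-I and OT-II lanes lie close in lane number, replicate 2 lanes were shallower in both, and their deviations correlated at 0.519 over 9060 genes. Leaving out 1 mouse gave 0 to 7 and 0 to 4 antibodies and 1 to 5 and 0 to 6 genes.

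Against wild-type cells (antibodies 0 and 0, genes 2 and 19), DESeq2 gave 5 and 7 antibodies and 1 gene higher, and library sizes 3 and 4 antibodies. At least 3 UMIs of *Sox13* and *Maf* together gave 4 and 5 antibodies and 6 and 42 genes, with 1 cell left in wild-type replicate 5. The lane group as a covariate gave 1 antibody higher and 41 and 110 genes. All transgenic mice gave 4 antibodies lower and 0 genes higher, and no filter 14 and 88 genes. With TCRγδ-high cells left out, wild-type replicate 4 kept 5 cells and replicate 5 kept 0. Calls of that fit would rest on 1 wild-type mouse and are not given. Leaving out 1 mouse gave 0 to 1 and 0 to 7 antibodies and 0 to 6 and 0 to 39 genes. Without wild-type replicate 4, which leaves 2 cells in 1 mouse, *Id2* (-4.791 to 6.86 over mice left out), *Capg* (-4.12 to 7.96), *Il18r1* (-3.98 to 6.84), *Ifi27l2a* (-4.22 to 8.31), *Ly6a* (-3.62 to 7.46), *Il7r* (-3.72 to 8.34), *Tmem176a* (-3.54 to 7.68) and *Icos* (-3.66 to 8.58) turned, since those 2 cells held 0 UMIs of them.

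For *Rag1*-deficient against OT mice (antibodies 0, genes 32 and 16), DESeq2 gave 1 antibody higher, no filter 132 and 86 genes, the antibody filters 79 and 51, doublets left out 11 higher, at least 3 UMIs 66 and 26, and other cells without *Cd8b1* and *Foxp3* 1 antibody higher and 138 and 85 genes. Leaving out 1 mouse gave 3 to 60 and 2 to 32 genes. With those other cells, *Trbc2* (0.017) and *Ccnb1* (0.060) turned in *Sox13*+*Maf*+ against other cells.

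Shares moved with cells under 2000 UMIs left out and the others thinned to 2000, 2 changes made together, to 2.84% and 1.06% (AND), 0.0457% (F5 replicate 2), 5.78% and 10.1% (OT-I) and 1.65% and 3.40% (OT-II), and to 1.47% with the antibody filters in AND replicate 2. The share above TCRγδ background moved with the 95th percentile, to 11.2% and 12% (AND) and 11.4% and 9.5% (OT-I), beside 12.4% and 12.9% in OT-II, and with the antibody filters to 4.21% in OT-I replicate 1. The 7 cells of F5 replicate 2 limit that genotype.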
